A study of Mus musculus with 18 samples.

Results

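The step from 7 h to 14 h lies in the middle of a time course in which G1E-ER4 cells were taken through the first part of red cell maturation, and it is described here from 6 of the 18 arrays in the series, the 3 labelled 7 h and the 3 labelled 14 h after estradiol. G1E is a mouse line with the features of an immature red cell precursor in which the Gata1 gene is disrupted, and G1E-ER4 is a derivative that carries GATA1 fused to the hormone-binding part of the estrogen receptor. Estradiol at 20 nM, given to cells in log-phase growth, switches the fusion protein on. Both groups compared are the same line in the same medium under the same hormone, and differ in the labels by time alone, 7 h against 14 h. The other arrays are 3 each at 0, 3, 21 and 30 h, and those at 0 h are labelled as taken before estradiol. All single-gene probe sets were used: of 18193 genes with such a probe set, 12719 passed a filter on low signal and were tested, each through its probe set with the highest mean. Per the labels the 3 arrays of each group are biological replicates, but whether each had its own culture is not stated, and p-values therefore reflect only how far these arrays differ, which may be technical. No array of cells kept for 14 h without estradiol was analysed here, so the response to GATA1, other responses to estradiol and time in culture cannot be told apart.

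GATA1 is the transcription factor that red cell precursors need to mature: it binds short GATA sequences, turns on globin, heme synthesis and red cell membrane genes, and takes over sites held by GATA2, its relative in earlier progenitors. Maturing red cell precursors first go on dividing, then leave the cell cycle, dismantle their organelles and condense their nucleus. KIT, the receptor for stem cell factor, keeps the progenitors dividing through RAS signalling and is lost as maturation proceeds.

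Levels are log2 signals as deposited and changes are differences of log2 means. A gene was called when its Benjamini-Hochberg adjusted p in limma, fitted over all 18 arrays and adjusted over all 12719 genes, was under 0.05. All replicate pairs within 7 h correlated at r = 0.9965 to 0.9969 across probe sets and within 14 h at 0.996 to 0.9969, against 0.9935 to 0.995 between the times. At 14 h, replicate 1 stood at least 1 below the mean of the other arrays for 27 genes, among genes where those arrays differed by under 0.5. Each of the other 5 arrays stood that far from its group, above or below, for 1 to 5 genes. The erythroid markers Gata1, Klf1, Epor and Tfrc were high at both times, at 10.26, 11.92, 10.36 and 12.70 at 7 h and 10.27, 12.07, 10.34 and 12.72 at 14 h. Which Gata1 transcript is read, that of the fusion or of the disrupted gene, is not in the labels. From the same marker list, Alas2 and Slc4a1 stood at 8.10 and 6.48 at 7 h and at 9.99 and 9.40 at 14 h. Hba-a1, at 2.10 and 2.24 on its own probe set, lay below the 40th percentile and was not tested. The summed linear signal of 17 mast cell and basophil markers on the array ran from 254.2 to 270.6 at 7 h and from 196.9 to 207 at 14 h, in arbitrary units, and 9 of the 17 lay below the 40th percentile on all 6 arrays. That of 19 megakaryocyte markers ran from 1466 to 1504 at 7 h and from 1662 to 1804 at 14 h, with 7 below the percentile. Without Tubb1, the gene in it with the largest rise, the megakaryocyte sum was lower at 14 h, at 1099 to 1250 against 1306 to 1360. That of 22 granulocyte and macrophage markers ran from 232.2 to 245.8 and from 223.5 to 239.3, with 11 below the percentile, and that of 17 lymphoid markers from 143.6 to 148.3 and from 137.4 to 150.4, with 10 below it. Between bulk samples such as these, fewer cells of a type and less RNA per cell cannot be told apart.

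From 7 h to 14 h, 1469 genes (11.5% of those tested) were higher and 1372 (10.8%) were lower. Most of these changes were small: the median change was 0.36 among genes called higher and -0.41 among those called lower, and a change of at least 2-fold was reached by 48 genes (0.377%) upward and 92 genes (0.723%) downward. The largest rise was that of Slc4a1, by 2.92, and the largest fall that of Vim, by 3.24. The 3 arrays at 14 h lay wholly above the 3 at 7 h for 2434 genes (19.1%) and wholly below for 2339 (18.4%). The median change over all genes was 0.0048. The bacterial and phage hybridisation controls had means of 11.98, 11.77 and 12.23 on the 7 h arrays and 11.66, 11.81 and 11.68 on the 14 h arrays. The 2 groups overlapped, with replicate 2 of 7 h below replicate 2 of 14 h. How far these controls report the amount of sample RNA was not tested. With the arrays set equal on these controls every change moved up by 0.28, 1312 genes were called higher and 158 lower, and the share of calls that were higher went from 51.7% to 89.3%. Of these, 1049 genes were called higher and 157 lower under both scalings, and 0 in opposite directions. Each array moved by its own control mean, so the spread among replicate arrays changed as well, and its part in lost calls was not tested. Which scaling is right was not tested, and changes below are given on the deposited scale, with list counts on the control scale beside them where they differ. Over all genes the control-scale median was 0.28, so list counts on that scale are to be read beside 1312 higher and 158 lower of 12719.

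**Figure D1:**
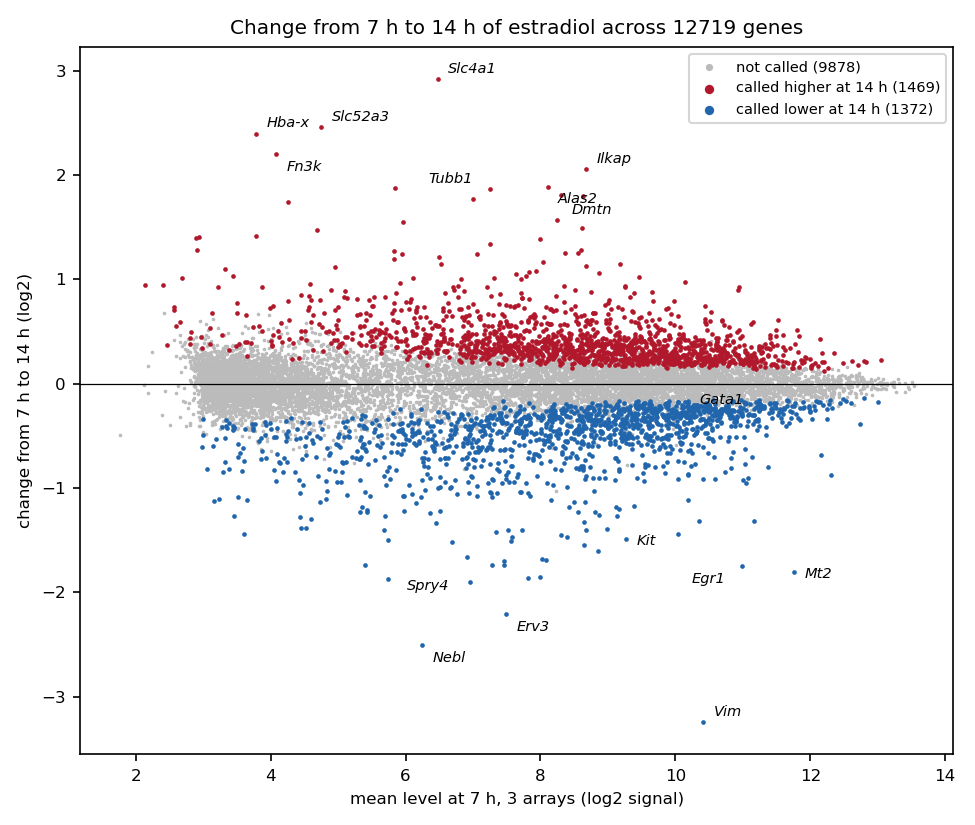
Change from 7 h to 14 h (log2, vertical) against the mean level at 7 h (log2 signal, horizontal) for 12719 genes, with 1469 called higher (red), 1372 called lower (blue) and the rest in grey. Slc4a1 lies highest at 2.92 and Vim lowest at -3.24, while Gata1 lies at 0.01.

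Of the 20 largest rises, 5 were in the lists of globin, heme, iron and red cell membrane genes used below, namely Slc4a1, Hba-x, Alas2, Dmtn and Hbb-bh1. Slc4a1 encodes band 3, the anion exchanger that anchors the membrane skeleton. Its level was 6.34, 6.57 and 6.53 on the 7 h arrays and 9.46, 9.35 and 9.40 on the 14 h arrays. All 14 h arrays thus lay far above all 7 h arrays, a 7.57-fold difference (change 2.92, SE 0.08, limma adjusted p = 6.49e-12). A second probe set of Slc4a1 rose by 3.30, and another, with a 7 h mean of 3.57, changed by 0.39 without passing the test. Alas2, the first and rate-limiting enzyme of heme synthesis in red cells, stood at 8.05, 8.19 and 8.07 at 7 h and at 9.90, 9.97 and 10.11 at 14 h. The groups did not overlap, and the rise was 3.71-fold (change 1.89, SE 0.08, adjusted p = 7.98e-10). Dmtn, or dematin, which bundles actin in the red cell membrane skeleton, went from 8.47, 8.27 and 8.19 to 10.08, 10.15 and 10.12, a 3.50-fold rise carried by all 3 of its probe sets (adjusted p = 9.74e-10).

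Among the other large rises, Slc52a3, a riboflavin transporter, went from 4.36, 4.91 and 4.97 to 7.25, 7.21 and 7.18, which is 5.51-fold. Fn3k, which removes sugar adducts from proteins such as hemoglobin, went from 4.10, 4.19 and 3.94 to 6.13, 6.28 and 6.44, which is 4.60-fold. Ilkap, a protein phosphatase that regulates integrin-linked kinase, went from 8.67, 8.69 and 8.66 to 10.73, 10.75 and 10.71. None of these groups overlapped, and the 3 adjusted p-values were between 7.98e-10 and 5.01e-06. The second probe set of Ilkap rose by 0.53, much less than the 2.06 of the first. Tubb1, the beta tubulin of platelets and of the marginal band in red cells of many vertebrates, rose 3.65-fold, and Rragd, a RAG GTPase that signals amino acid supply to mTORC1, rose 3.48-fold. The rest of the 20 largest rises were Ypel4, Ypel3, Hbb-bh1, Hba-x, Tmem88b, Neat1, Slc38a5, Dhrs3, Strip2, Apol11b, Ctsf and Klf6, with changes from 1.29 to 2.40. Of the genes called higher, 20 had a 7 h mean below the mean 40th percentile of the 7 h arrays, 4 of them among those at least 2-fold higher, so that their starting level was near the array's background.

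Several genes sit in more than one of the 34 lists used below, so that list counts are not separate. Of 5 tested globin genes 3 rose and 0 fell, with a median change of 1.28, against 11.5% higher, 10.8% lower and a median of 0.0048 over all genes. The 3 were the embryonic chains, and 2 were called without replicate 1 or 2 of 7 h or replicate 3 of 14 h. Hba-x, the zeta chain, stood at 4.04, 4.10 and 3.21 at 7 h and at 6.16, 6.19 and 6.18 at 14 h, a 5.28-fold rise (change 2.40, SE 0.18, adjusted p = 2.18e-07). Hbb-bh1 went from 7.11, 7.06 and 6.81 to 8.49, 8.96 and 8.85, and all 3 of its probe sets rose by 1.71 to 1.80. Hbb-y, an epsilon-type chain, went from 2.44, 2.68 and 3.61 to 3.67, 4.20 and 4.70, so that its groups came within 0.06 of each other (change 1.28, SE 0.35, adjusted p = 0.0152). Its change is the list median, and its 7 h values of 2.44 and 2.68 lay below the 40th percentile of about 3.24. The adult chains are read mainly by probe sets shared between gene copies. Hba-a2 has a tested probe set of its own, which changed by 0.24 (adjusted p = 0.117). The 3 probe sets shared by Hba-a1 and Hba-a2 rose by 0.41 to 0.68, with adjusted p-values of 3.00e-04 to 0.00936. The one shared by the adult Hbb copies changed by 0.09 from a 7 h mean of 13.15 (adjusted p = 0.451), where the highest value in the series was 14.37. Of the shared Hba probe sets, one with a similar 7 h mean of 13.03 rose by 0.50.

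Of 7 heme synthesis enzymes 5 rose and 0 fell, with a median change of 0.27. After Alas2 the largest was Uros, uroporphyrinogen III synthase (change 0.69, SE 0.07, adjusted p = 6.47e-06), followed by Alad, Ppox and Urod at 0.43, 0.27 and 0.21. Fech and Cpox, which act at the end and middle of the pathway, changed by 0.12 and -0.06 without passing the test. On the control scale 3 of the 7 were called higher. Of 23 genes of heme and iron handling 10 rose and 3 fell (median 0.21; control scale 9 and 0). Slc25a37, or mitoferrin 1, which brings iron into mitochondria, rose 1.96-fold (change 0.97, SE 0.11, adjusted p = 1.02e-05), and Slc25a38, a mitochondrial glycine carrier, rose by 0.78. Those that fell were Tfr2, the second transferrin receptor, by 0.71, Slc48a1, a heme transporter of lysosomes, by 0.49, and the iron exporter Slc40a1 by 0.35, while Tfrc, the main transferrin receptor, changed by 0.02.

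Of 26 genes of the red cell membrane skeleton and band 3 complex 11 rose and 2 fell, with a median change of 0.16 (control scale 9 and 0). Besides Slc4a1 and Dmtn they included Sptb, the beta spectrin, with a change of 0.80, and Add2, beta adducin, with one of 0.60 (adjusted p = 6.47e-06 and 8.49e-06). Cd44, an adhesion receptor known to be lost as erythroblasts mature, fell by 0.62 (adjusted p = 4.75e-05).

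Promoter windows of RefSeq (build GRCm38.p6), from 250 bases before to 50 bases after the annotated start, were searched on both strands. Of the genes tested, 8219 had exactly 1 such window. A GATA element, counted as AGATAA or TGATAA, or either with G as its last base, was present in 19.3% of all windows, in 7 of 12 (58.3%) for the 20 largest rises, in 10 of 18 (55.6%) for the membrane list, in 3 of 3 for globin genes, in 2 of 4 for heme synthesis and in 0 of 11 for heme and iron handling. The element was not limited to lists that rose: it was in 7 of 9 (77.8%) windows of the mast cell list, in 3 of 7 (42.9%) of the granulocyte and macrophage list and in 2 of 5 (40%) of the lymphoid list. Among all genes called higher the share was 20.3%, and among those called lower 18.1%. The windows of the 4 called members of the erythroid lists or the 20 largest rises with the largest change and a match are shown, each 5′ to 3′ on the gene's strand, with the GATA elements in capitals. They lie at chr11:32276350-32276649 (plus strand), chrX:150547167-150547466 (plus strand), chr4:155785825-155786124 (minus strand) and chrX:8271131-8271430 (plus strand).
Hba-x: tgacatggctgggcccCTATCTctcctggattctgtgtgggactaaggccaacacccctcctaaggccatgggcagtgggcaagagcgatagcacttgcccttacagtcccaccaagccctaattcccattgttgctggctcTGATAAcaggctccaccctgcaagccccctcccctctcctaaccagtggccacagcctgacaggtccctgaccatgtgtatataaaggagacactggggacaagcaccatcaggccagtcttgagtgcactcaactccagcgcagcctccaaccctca
Alas2: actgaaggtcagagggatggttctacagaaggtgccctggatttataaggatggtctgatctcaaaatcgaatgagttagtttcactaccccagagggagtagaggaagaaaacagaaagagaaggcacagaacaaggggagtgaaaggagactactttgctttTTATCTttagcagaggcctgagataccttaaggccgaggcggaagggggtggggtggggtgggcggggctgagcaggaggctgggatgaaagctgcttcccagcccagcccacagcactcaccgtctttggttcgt
Tmem88b: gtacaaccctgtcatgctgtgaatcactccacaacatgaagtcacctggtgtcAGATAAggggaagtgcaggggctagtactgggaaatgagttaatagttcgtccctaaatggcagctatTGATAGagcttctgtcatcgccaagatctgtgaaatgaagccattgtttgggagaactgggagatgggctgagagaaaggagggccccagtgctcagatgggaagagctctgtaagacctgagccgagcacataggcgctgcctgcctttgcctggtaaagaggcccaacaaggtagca
Slc38a5: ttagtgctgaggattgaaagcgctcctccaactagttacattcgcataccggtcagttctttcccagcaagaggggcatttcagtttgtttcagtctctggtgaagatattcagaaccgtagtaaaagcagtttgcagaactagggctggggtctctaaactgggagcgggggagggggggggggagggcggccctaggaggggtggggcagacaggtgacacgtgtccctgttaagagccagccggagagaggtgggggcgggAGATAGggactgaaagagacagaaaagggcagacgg
In Hba-x the matches begin 234 and 108 bases before the start, in Alas2 86 bases before it, in Tmem88b 197 and 129 bases before it, and in Slc38a5, an amino acid transporter, at base 15 after it. Slc4a1 had no single window, and most GATA1 binding sites lie outside such windows, so a window without a match says nothing about binding.

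Among transcription factors of the red cell programme, the measured Gata1 signal did not change detectably over the step, while several of its partners and predecessors did. Gata1 stood at 10.27, 10.26 and 10.24 at 7 h and at 10.17, 10.32 and 10.31 at 14 h (change 0.01, SE 0.08, adjusted p = 0.953), and the groups overlapped. The labels do not say whether its probe set reads the fusion, the disrupted gene or both. Gata2 went from 10.87, 10.82 and 10.80 to 10.02, 9.89 and 10.15, falling by 0.81 (SE 0.06, adjusted p = 3.26e-07), and its second probe set fell by 1.13. Klf1, an activator of the adult beta globin gene, changed by 0.15 (adjusted p = 0.0503), and Zfpm1, the GATA1 cofactor FOG1, rose by 0.28 (adjusted p = 0.0397). Of 28 erythroid transcription factors 6 rose and 4 fell (median 0.06; control scale 5 and 1). E2f2, an E2F factor prominent in late erythroblasts, rose by 0.75 and Mxd1, an antagonist of MYC, by 0.71, whereas Lyl1 fell by 1.23, Sox6 by 0.70 and Myb by 0.69 (adjusted p from 3.26e-08 to 1.97e-04).

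Of 19 progenitor transcription factors and receptors 9 fell and 1 rose, Mycn by 0.22, with a median of -0.23 that became 0.04 on the control scale, where 4 fell and 0 rose. Kit stood at 9.29, 9.20 and 9.31 at 7 h and at 7.72, 7.89 and 7.73 at 14 h. No arrays overlapped, and the level was 2.81-fold lower (change -1.49, SE 0.13, adjusted p = 8.99e-07). Hhex, a homeobox factor of early blood progenitors, went from 11.06, 11.20 and 11.23 to 9.88, 9.81 and 9.85, and Ikzf2, or Helios, fell by 0.89. Myc went down by 0.65 (adjusted p = 0.00451) while its antagonist Mxd1 went up. Of 12 genes of the MYC network 3 rose and 3 fell, on the control scale 1 and 0.

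Many genes that report signalling through KIT, RAS and ERK fell. Of 21 genes of KIT and RAS feedback 11 fell and 3 rose (median -0.33), against 10.8% and 11.5% over all genes. On the control scale 3 fell and 3 rose (median -0.05), where 158 of all 12719 genes fell and 1312 rose (median 0.28). Spry4, an inhibitor that ERK signalling induces, stood at 6.92, 6.79 and 7.15 at 7 h and at 5.09, 5.19 and 4.88 at 14 h, 3.74-fold lower (adjusted p = 1.43e-06). Etv5, an ETS factor induced by the same pathway, went from 8.46, 8.50 and 8.72 to 7.33, 7.41 and 7.26, 2.34-fold lower (adjusted p = 4.36e-08). Against this direction, Dusp1, a phosphatase that switches MAP kinases off, rose by 0.72, Pim1, a kinase induced by STAT5, by 0.57, and Cish, a STAT5-induced inhibitor, by 0.35. Of 23 immediate early genes 8 fell and 2 rose (median -0.09; control scale 5 and 2, median 0.18). Egr1 went from 10.86, 10.94 and 11.17 to 9.44, 9.03 and 9.24, a fall of 1.75 (SE 0.11, adjusted p = 3.25e-08) with no overlap. Fos fell by 1.23 and Nab2, a repressor of EGR1, by 0.92, while Klf6 rose by 1.29 and Btg2 by 0.67.

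**Figure D2:**
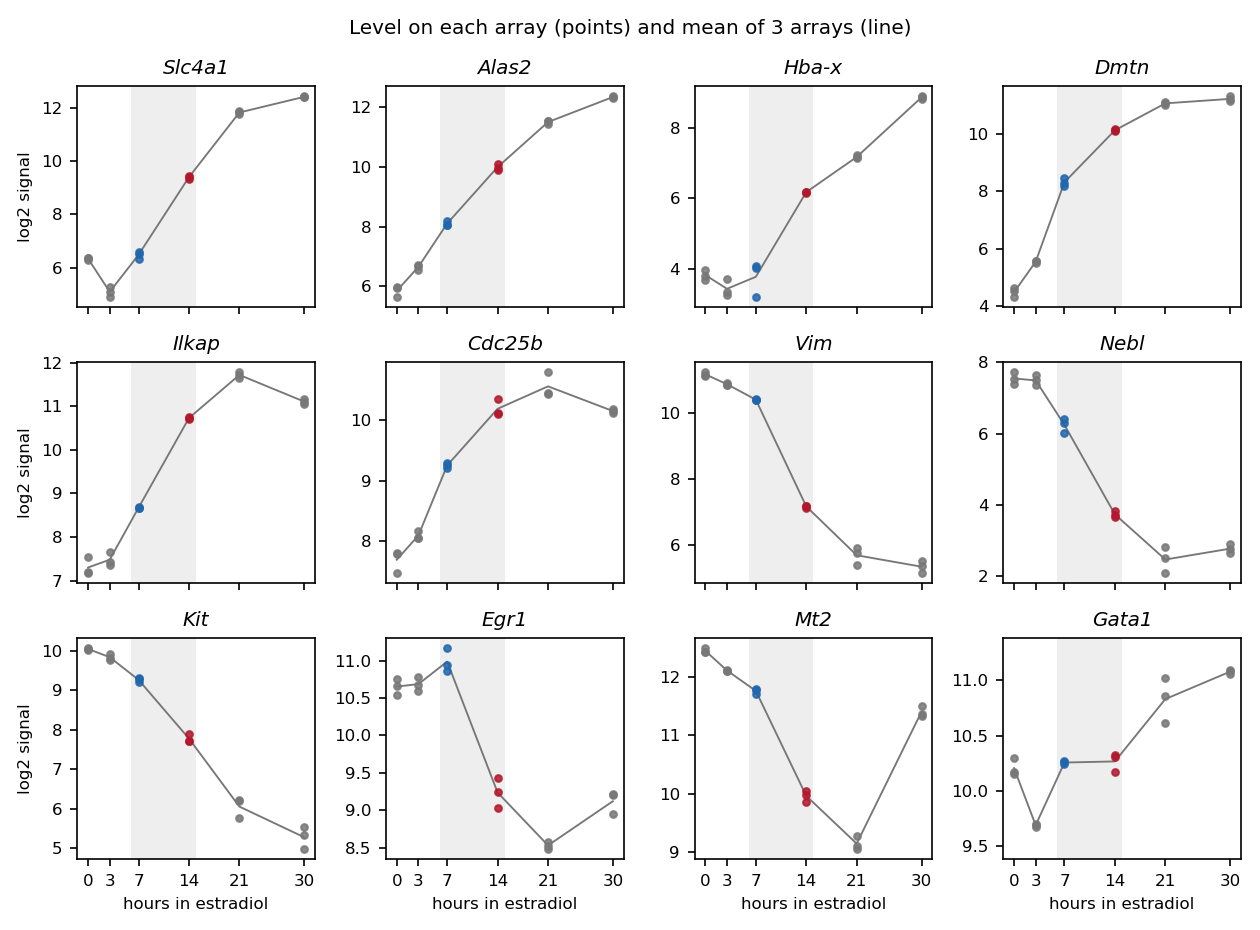
Level (log2 signal) of 12 genes on each of the 18 arrays (points) against hours in estradiol, with the mean of 3 arrays as a line. The shaded band holds the 7 h (blue) and 14 h (red) arrays. Slc4a1, Alas2, Hba-x, Dmtn, Ilkap and Cdc25b stand higher at 14 h on every array, Vim, Nebl, Kit, Egr1 and Mt2 lower, and the Gata1 arrays overlap.

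Of the 20 largest falls, Vim and Nebl, the first of them by size, were the 2 in the lists of filament, adhesion, actin and tubulin genes. Vim, or vimentin, an intermediate filament protein that mammalian red cell precursors lose as they mature, stood at 10.40, 10.41 and 10.42 at 7 h and at 7.19, 7.13 and 7.18 at 14 h. That is 9.46-fold lower with no overlap (change -3.24, SE 0.11, adjusted p = 4.35e-11), and its 3 probe sets fell by 2.69 to 3.28. Nebl, or nebulette, an actin-binding protein, went from 6.03, 6.40 and 6.30 to 3.72, 3.65 and 3.84, 5.68-fold lower (adjusted p = 2.73e-08). Its other probe sets, with 7 h means of 2.82 and 2.90, did not pass the test. Mt2, a metallothionein that binds zinc, went from 11.78, 11.79 and 11.71 to 9.86, 9.98 and 10.05, 3.49-fold lower (adjusted p = 1.83e-10).

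Of 34 genes of adhesion and actin remodelling 12 fell and 3 rose, with a median of -0.17 that became 0.11 on the control scale, where 6 fell and 3 rose. Flna, the actin crosslinker filamin A, fell by 1.45, Anxa2, a membrane-binding annexin, by 1.42, and Iqgap2, a scaffold for small GTPases, by 1.11. Lcp1, which bundles actin in blood cells, was called lower (change -1.11), but its means of 3.23 and 2.12 lay at or below the 40th percentile at both times. Itgb2, Actn4 and Itgb7 rose by 0.53, 0.42 and 0.40. Among 14 genes of intermediate filaments and nuclear lamina, Nefh and Syne1 fell with Vim, by 1.12 and 0.61, while Lmna, the A-type lamin, rose by 0.59 and Sun1 by 0.27 (median -0.055; control scale 2 lower and 1 higher, median 0.22). Of 12 tubulin genes 6 rose and 0 fell (median 0.23; control scale 5 and 0), led by Tubb1 and by Tuba1a, which rose by 1.08.

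The rest of the 20 largest falls were Erv3, Spry4, Armcx4, Arap3, Rcsd1, Egr1, Tspoap1, Septin9, Cd109, Ajuba, Hoxc8, Slc26a1, Mmp14, Pgm1, Ces2g, Tlcd5 and Fgf15, with changes from -2.21 to -1.51. For Ajuba and Rcsd1 a single array weighed on the value. Ajuba stood at 7.52, 7.41 and 7.46 at 7 h and at 4.37, 6.56 and 6.37 at 14 h, with replicate 1 apart from the others (change -1.69, SE 0.39, adjusted p = 0.00520). Of the genes called lower, 40 had a 14 h mean below the mean 40th percentile of the 14 h arrays, 9 of them among those at least 2-fold lower, so that the size of these falls is limited by background.

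Some markers of mast cells fell as well. In the mast cell and basophil list 5 of 12 tested genes fell, Cpa3, Hdc, Cd200r4, Ms4a2 and Gzmb, and 0 rose (median -0.37; control scale 3 and 0). Means of Ms4a2 (3.05 and 2.24) and Gzmb (3.00 and 2.66) lay below the 40th percentile of about 3.2 at both times. Those of Cpa3 (3.06) and Cd200r4 (2.17) lay below it at 14 h, so the size of these falls is limited by background. Cpa3, a mast cell protease, went from 4.31, 4.15 and 4.87 to 2.73, 3.53 and 2.92, and Hdc, which makes histamine, from 5.82, 5.82 and 5.39 to 4.62, 4.003 and 4.19, with no overlap in either (adjusted p = 7.37e-04 and 4.24e-05). The proteases Mcpt2, Mcpt8, Tpsb2 and Cma1 had higher means at 14 h, by 0.23, 0.15, 0.05 and 0.06, without passing the test. Fcer1a, Mcpt1 and Mcpt4, defining markers of these cells, stood at 1.54, 1.91 and 2.04 at 7 h and at 1.66, 1.91 and 2.04 at 14 h, below the 40th percentile of about 3.2. Of 12 tested megakaryocyte genes 4 fell and 2 rose (median -0.195, on the control scale 0.08 with 1 lower and 2 higher), and 2 fell without replicate 2 of 7 h or replicate 3 of 14 h. Gp5, a platelet adhesion receptor, fell by 0.996, Rab27b by 0.72 and Pf4 by 0.47, whereas Gp9 rose by 0.63 and Tubb1, which is in this list too, by 1.87. Of 9 granulocyte and macrophage genes 1 rose, Lyz2 by 0.45, and of 8 lymphoid genes 0 were called by limma, with 0 higher and 0 lower at an unadjusted p under 0.05. The part of other cell types in the falls above was not tested.

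Many genes of cell division rose by small amounts. Over 5 lists of mitosis genes 59 of 139 tested rose and 1 fell, with a median of 0.17, against 11.5% and 10.8% and a median of 0.0048 over all genes. On the control scale 42 rose and 0 fell (median 0.45). Of 23 mitotic kinases, cyclins and phosphatases 12 rose and 0 fell (median 0.22; control scale 9 and 0). Cdc25b, a phosphatase that activates CDK1 at the entry into mitosis, stood at 9.20, 9.29 and 9.27 at 7 h and at 10.36, 10.10 and 10.12 at 14 h, a 1.92-fold rise (change 0.94, SE 0.11, adjusted p = 1.32e-05) with no overlap. Cdkn3, a CDK phosphatase, rose by 0.72, and Foxm1 and Mybl2, transcription factors that drive mitotic genes, by 0.49 and 0.48. Cdk1 itself changed by 0.03 and Aurkb by 0.08, neither past the test.

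Of 36 centromere and kinetochore genes 17 rose and 0 fell (median 0.21; control scale 14 and 0), led by Cenpl and Cenpm at 0.60 and 0.57. Of 32 mitotic kinesins and spindle genes 13 rose and 1 fell (median 0.19; control scale 11 and 0). Nusap1, which bundles spindle microtubules, went from 10.45, 10.47 and 10.45 to 11.09, 10.92 and 11.07, a 1.49-fold rise (adjusted p = 1.67e-06). The exception was Cep55, which acts in the last cut between daughter cells: it went from 10.24, 10.12 and 10.31 to 9.48, 9.48 and 9.35, a fall of 0.79 (SE 0.11, adjusted p = 1.01e-04), and its value on the control scale, -0.51, did not pass the test. Of 25 genes of the spindle checkpoint and anaphase-promoting complex 10 rose and 0 fell (median 0.10; control scale 4 and 0), among them Ube2c and Fbxo5 at 0.46 and 0.50, and of 23 condensin and cohesin genes 7 rose and 0 fell (median 0.07; control scale 4 and 0). Leaving out 1 array left 42 to 55 of the 139 called higher and 1 or 2 lower. The 10 of the spindle checkpoint list fell to 3 without replicate 3 of 7 h, 4 without replicate 3 of 14 h and 6 without replicate 1 of 7 h.

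The promoter element TTTGAA, known as the cell cycle homology region, and the CCAAT box often stand side by side in mitotic promoters. TTTGAA was present in 11.9% of all 8219 windows, in 55 of 107 (51.4%) of those of the 5 mitosis lists and in 21 of 26 (80.8%) of those of the kinesin and spindle list. CCAAT was present in 39.3% of all windows and in 68 of 107 (63.6%), though also in 13 of 13 of the cholesterol synthesis list. Among the list members called higher TTTGAA was in 25 of 44 (56.8%). The windows of the 4 mitosis genes with the largest rise and a TTTGAA match are shown with TTTGAA and CCAAT, on either strand, in capitals. They lie at chr14:46760291-46760590 (plus strand), chr1:161070517-161070816 (plus strand), chr2:158767849-158768148 (plus strand) and chr1:136467598-136467897 (plus strand).
Cdkn3: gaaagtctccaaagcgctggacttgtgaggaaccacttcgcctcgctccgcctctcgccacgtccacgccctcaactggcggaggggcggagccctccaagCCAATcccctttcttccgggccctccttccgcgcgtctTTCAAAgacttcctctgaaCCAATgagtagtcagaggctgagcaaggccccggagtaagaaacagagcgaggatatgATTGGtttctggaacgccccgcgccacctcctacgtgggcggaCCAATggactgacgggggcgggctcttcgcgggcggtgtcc
Cenpl: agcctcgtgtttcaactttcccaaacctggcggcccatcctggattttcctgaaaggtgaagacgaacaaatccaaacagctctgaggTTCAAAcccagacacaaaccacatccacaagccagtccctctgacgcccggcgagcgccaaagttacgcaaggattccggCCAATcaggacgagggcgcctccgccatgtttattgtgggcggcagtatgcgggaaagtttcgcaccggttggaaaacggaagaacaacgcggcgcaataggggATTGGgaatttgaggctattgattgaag
Fam83d: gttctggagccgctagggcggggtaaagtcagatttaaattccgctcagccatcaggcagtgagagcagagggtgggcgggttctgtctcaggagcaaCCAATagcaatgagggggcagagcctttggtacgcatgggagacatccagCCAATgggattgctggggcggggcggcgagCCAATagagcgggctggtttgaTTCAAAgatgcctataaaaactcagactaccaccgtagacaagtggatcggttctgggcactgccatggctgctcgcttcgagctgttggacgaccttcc
Kif14: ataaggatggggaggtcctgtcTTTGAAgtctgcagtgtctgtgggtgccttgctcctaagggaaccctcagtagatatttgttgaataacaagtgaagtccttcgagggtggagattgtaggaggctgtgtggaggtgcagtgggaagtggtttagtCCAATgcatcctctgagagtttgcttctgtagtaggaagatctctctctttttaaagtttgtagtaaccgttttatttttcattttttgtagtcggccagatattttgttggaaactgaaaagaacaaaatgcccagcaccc
Cdkn3, Cenpl and Fam83d carry TTTGAA as TTCAAA on the printed strand, 111, 162 and 50 bases before the start, with 4, 2 and 3 CCAAT boxes. In Kif14 it lies 228 bases before the start with 1 CCAAT box. Fam83d, which brings a kinase to the spindle, and Kif14, a kinesin of cytokinesis, rose by 0.52 and 0.51.

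Of 50 DNA replication genes 24 rose and 0 fell, with a median of 0.16, and on the control scale 11 rose and 0 fell. Ccne1, or cyclin E1, which starts S phase, went from 10.72, 10.76 and 10.60 to 11.28, 11.26 and 11.38, a 1.53-fold rise (adjusted p = 1.04e-05), and Orc1, the largest subunit of the origin recognition complex, rose by 0.56. The count depended on single arrays: without replicate 3 of 7 h it was 14, and without replicate 3 of 14 h it was 16. An E2F element, counted as TTCCCGC or TTGGCGC, was in 17 of 33 (51.5%) windows of this list, in 11 of 17 (64.7%) of the condensin and cohesin list and in 12.3% of all windows. That of Chaf1b, a subunit of the chromatin assembly factor that follows the fork, is shown as the called member with the largest rise and a match, at chr16:93883651-93883950 (plus strand), with the element, read on the other strand, in capitals 227 bases before the start and at base 27 after it. Chaf1b rose by 0.43 (adjusted p = 0.00243).
Chaf1b: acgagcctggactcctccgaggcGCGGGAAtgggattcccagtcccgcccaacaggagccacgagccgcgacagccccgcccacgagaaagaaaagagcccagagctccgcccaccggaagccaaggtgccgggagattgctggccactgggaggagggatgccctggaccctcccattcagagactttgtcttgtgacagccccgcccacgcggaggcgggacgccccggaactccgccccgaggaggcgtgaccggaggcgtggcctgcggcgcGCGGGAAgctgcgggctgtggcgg
Of 15 CDK inhibitors, D cyclins and G1 kinases 5 rose and 2 fell (median 0.16; control scale 3 and 0), though without any 1 array other than replicate 3 of 14 h the risers numbered 2 or 3. Ccnd3, the D cyclin that erythroblasts rely on, rose 1.84-fold (change 0.88, adjusted p = 1.15e-06), the inhibitors Cdkn2c and Cdkn2d rose by 0.46 and 0.36, and the G1 kinase Cdk6 fell by 0.51, while Ccnd2 fell by 0.27 but stood at 0.01 on the control scale.

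**Figure D3:**
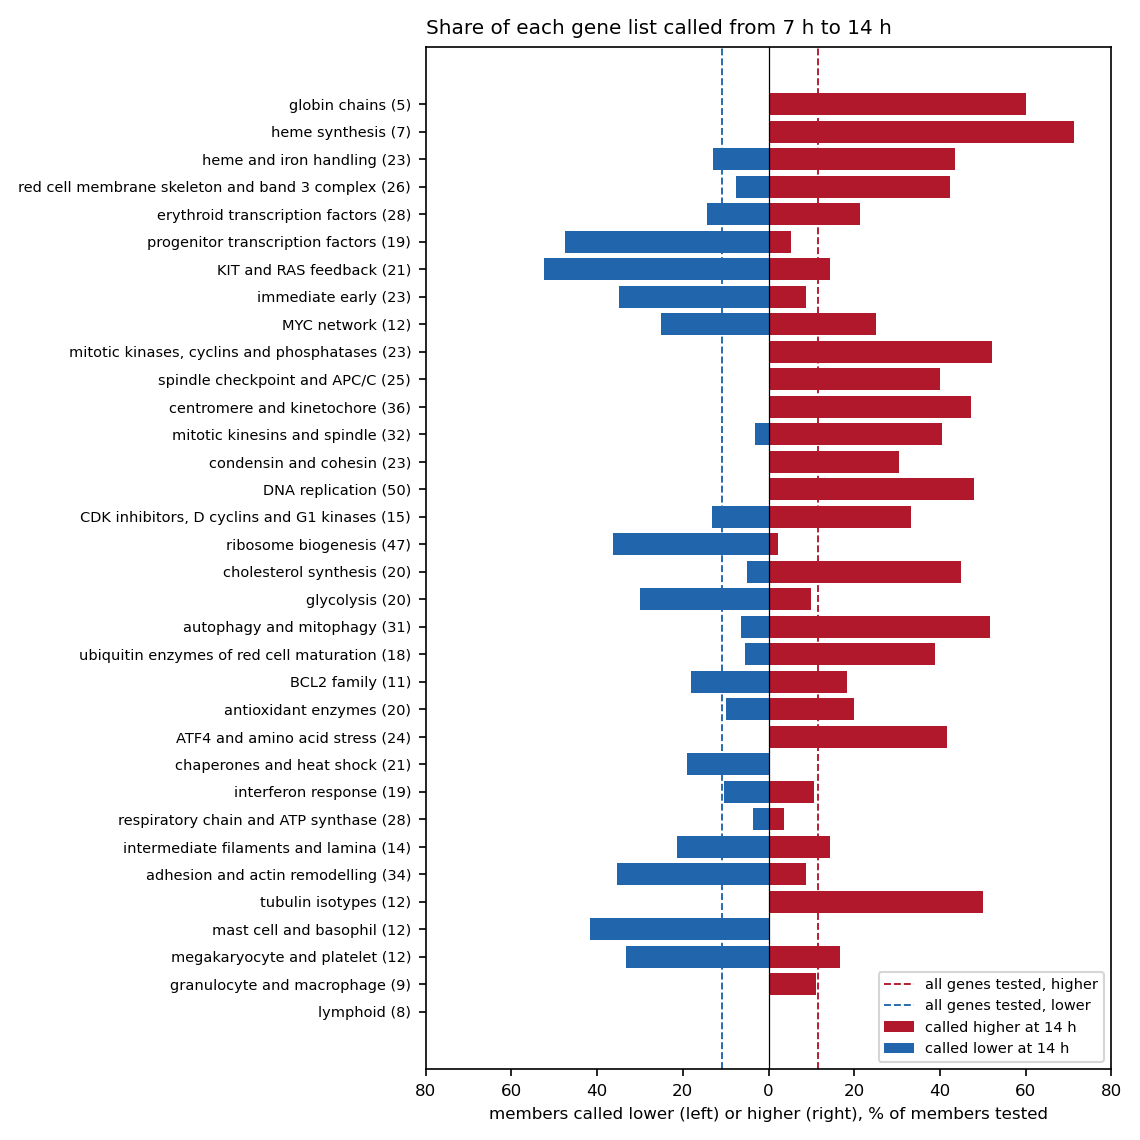
Share of the tested members of each of 34 gene lists called higher (red, right) or lower (blue, left) at 14 h than at 7 h, with the number tested in brackets and dashed lines at the shares over all genes tested, 11.5% and 10.8%. Heme synthesis, mitosis, replication and autophagy lists lie to the right, KIT and RAS feedback, progenitor factors, ribosome biogenesis and adhesion to the left, on the deposited scale.

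Growth and metabolism genes split. Of 47 ribosome biogenesis genes 17 fell and 1 rose, Bysl by 0.28, with a median of -0.125 on the deposited scale that became 0.15 on the control scale, where 1 fell and 1 rose. Rrp1b, a nucleolar factor, fell by 0.63 (SE 0.07, adjusted p = 2.15e-05) and Tsr1, which matures the small subunit, by 0.45. Leaving out 1 array left 7 to 13 called lower, the fewest without replicate 1 of 7 h, 10 without replicate 2 of 7 h and 11 without replicate 2 of 14 h. Noc3l and Polr1b had larger mean changes, -1.03 and -0.81, but an SD of 1.18 and 1.07 among the 14 h arrays and did not pass the test. Of 20 cholesterol synthesis genes 9 rose and 1 fell (median 0.21; control scale 7 and 0), led by Fdps, which makes farnesyl diphosphate, at 0.71, and Mvk, mevalonate kinase, at 0.60. Of 20 glycolysis genes 6 fell and 2 rose, with a median of -0.06 that became 0.22 on the control scale, where 0 fell and 3 rose. Those that rose were the red cell forms, Pklr, the liver and red cell pyruvate kinase, by 0.47 and Bpgm, which makes the 2,3-bisphosphoglycerate that tunes hemoglobin, by 0.34. Hk2, a hexokinase of growing cells, fell by 0.75 and Pkm, the pyruvate kinase of most tissues, by 0.44.

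Of 31 autophagy and mitophagy genes 16 rose and 2 fell, with a median of 0.25, and on the control scale 12 rose and 0 fell. Atg9a, which supplies membrane to the growing autophagosome, rose by 0.57, Gabarap and Map1lc3a, ubiquitin-like proteins attached to that membrane, by 0.56 and 0.55, and Wipi1 by 0.53 (adjusted p from 5.76e-05 to 0.00630). Tfeb, a transcription factor of lysosomal genes, fell by 0.56 (adjusted p = 0.00999). Of 18 ubiquitin enzymes of red cell maturation 7 rose and 1 fell (median 0.14; control scale 4 and 0), with Trim10, a ubiquitin ligase of erythroid cells, at 0.66 and Ube2l6, an enzyme for ubiquitin and ISG15, at 0.65. In the BCL2 family 2 of 11 rose and 2 fell (control scale 1 and 1), against 11.5% and 10.8% over all genes. Bcl2l1, or BCL-XL, the survival protein of late erythroblasts, rose by 0.45 and Bad, which promotes cell death, by 0.24, and Bcl2 and Bid fell by 0.84 and 0.52. Of 20 antioxidant enzymes 4 (20%) rose and 2 (10%) fell, against 11.5% and 10.8% over all genes, and on the control scale 2 and 0. The lower count was 1 without replicate 2 of 14 h or any replicate of 7 h. Txnrd2, the mitochondrial thioredoxin reductase, rose by 0.74.

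ATF4 is the transcription factor made when translation is slowed by stress or by low heme. The list of ATF4 and amino acid stress genes, not all of them ATF4 targets, rose in part. Of 24 genes 10 rose and 0 fell, with a median of 0.11 (control scale 9 and 0). Ddit3, or CHOP, stood at 8.74, 8.69 and 8.61 at 7 h and at 10.02, 9.62 and 9.78 at 14 h, 2.18-fold higher (adjusted p = 1.13e-05). Atf5 went from 9.02, 8.80 and 8.79 to 10.06, 9.84 and 9.90, and Nupr1, a small stress protein, from 7.65, 7.75 and 7.49 to 8.78, 8.49 and 8.79. None of these groups overlapped. Trib3, a pseudokinase that feeds back on ATF4, rose by 0.93 and Ppp1r15a, or GADD34, which restores translation, by 0.74. Eif2ak1, the kinase that senses low heme in red cells, rose by 0.55 and Atf4 by 0.29, whereas the amino acid genes Asns, Psat1, Phgdh and Slc7a11 changed by -0.06, 0.04, 0.02 and -0.37 without passing the test. The element TGATGNAA, part of the site that ATF4 binds with a C/EBP partner, was in 6 of 20 (30%) windows of this list and in 2.3% of all. Those of Nupr1 and Trib3, the called members with the largest rise and a match, are shown with the element, read on the other strand, in capitals. They lie at chr7:126625421-126625720 (minus strand) and chr2:152344011-152344310 (minus strand), and the elements begin 110 bases before the start and at base 15 after it.
Nupr1: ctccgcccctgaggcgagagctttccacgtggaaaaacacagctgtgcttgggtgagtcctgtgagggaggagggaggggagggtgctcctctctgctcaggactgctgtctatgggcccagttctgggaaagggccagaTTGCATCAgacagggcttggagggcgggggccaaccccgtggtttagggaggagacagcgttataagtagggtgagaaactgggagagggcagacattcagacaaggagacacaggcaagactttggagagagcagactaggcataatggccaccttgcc
Trib3: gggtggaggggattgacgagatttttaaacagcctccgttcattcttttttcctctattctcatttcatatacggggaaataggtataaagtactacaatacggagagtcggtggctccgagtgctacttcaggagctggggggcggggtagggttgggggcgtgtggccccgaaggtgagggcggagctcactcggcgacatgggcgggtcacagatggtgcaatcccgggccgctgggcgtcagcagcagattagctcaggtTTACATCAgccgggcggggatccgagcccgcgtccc
Of 21 chaperones and heat shock genes 0 rose and 4 fell, Cct6a, Cct4, Hspa9 and Hspd1, by 0.15 to 0.18. These falls became rises of 0.10 to 0.12 that did not pass the test on the control scale, and 0 to 2 of them were called when 1 array was left out, 0 of them without replicate 1 of 14 h or any replicate of 7 h. At an unadjusted p under 0.05 the list held 0 higher and 5 lower. Of 28 respiratory chain and ATP synthase genes 1 rose and 1 fell (control scale 0 and 0), and of 19 interferon response genes 2 rose and 2 fell (control scale 2 and 0), shares below those over all genes.

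The step from 14 h to 21 h is as long, 7 h, and the difference between the changes in both steps was tested in the same fit, since they share the 14 h arrays. The change from 7 h to 14 h was the more positive for 404 genes (3.18%) and the more negative for 216 (1.7%). These counts were unstable: they ran from 80 to 647 and from 47 to 387 when 1 array was left out, lowest without replicate 3 of 14 h and highest without replicate 3 of 21 h, and from arrays of the 3 times alone they were 49 and 15. On the control scale they were 244 and 1. Signals of the 3′ and 5′ probe sets of control genes, which part as RNA degrades, overlapped between 7 h and 14 h in their difference but stood further apart at 21 h: the 3′ minus 5′ difference of 18S RNA was -0.15 to 0.06 at 14 h and 0.56 to 0.75 at 21 h. For Tfrc, Gapdh and Actb its mean went from 2.03, 1.19 and 1.87 at 14 h to 2.43, 1.52 and 2.15 at 21 h, with overlap for Actb, and its part in the step difference was not tested. Vim was the gene with the most negative difference, falling by 3.24 from 7 h to 14 h and by 1.48 from 14 h to 21 h (difference -1.76, SE 0.19, adjusted p = 1.51e-04). Sfxn3, a sideroflexin of the mitochondrial membrane, turned: it fell by 0.91 in the first step and rose by 0.61 in the second (difference -1.51, adjusted p = 8.44e-06). Its levels were 8.94, 8.81 and 8.86 at 7 h, 7.99, 8.02 and 7.89 at 14 h and 8.67, 8.49 and 8.56 at 21 h, so that the 14 h arrays lay below both others. Tspoap1 and Prkg1, the cGMP-dependent kinase, fell by 1.74 and 1.47 in the first step and changed by -0.15 and 0.0042 in the second. Tspoap1 had a peak at 7 h: it stood at 5.05, 4.86 and 4.96 at 3 h, at 7.40, 7.26 and 7.20 at 7 h and at 5.65, 5.46 and 5.54 at 14 h.

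In the opposite direction, Nefh, the heavy neurofilament chain, fell by 1.12 from 7 h to 14 h but by 2.58 from 14 h to 21 h (difference 1.46, SE 0.11, adjusted p = 8.44e-06), and Septin4 rose by 0.40 and then fell by 1.02. Among the 16 genes named for these differences, Dctd, Ak1, Nefh, Septin4 and Vim passed the test under all 20 alternatives run, while Prmt2 passed under 8 and Socs3 under 13. The lists with the highest shares of more positive differences were the CDK inhibitors, D cyclins and G1 kinases (6 of 15), DNA replication (15 of 50) and ribosome biogenesis (11 of 47), each with 0 more negative. Their median changes were 0.16, 0.16 and -0.125 from 7 h to 14 h and 0.0082, -0.11 and -0.46 from 14 h to 21 h. Gata1 changed by 0.01 in the first step and 0.56 in the second (difference -0.55, SE 0.14, adjusted p = 0.0353). On the control scale only 1 gene was called more negative, and Vim, which passed under all 20 alternatives, was that gene. The differences of Gata1, Sfxn3, Tspoap1 and Prkg1 therefore did not pass on that scale. Slc4a1, Alas2 and Kit had differences of 0.49, 0.38 and 0.24 that did not pass the test (adjusted p = 0.0604, 0.135 and 0.600).

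**Figure D4:**
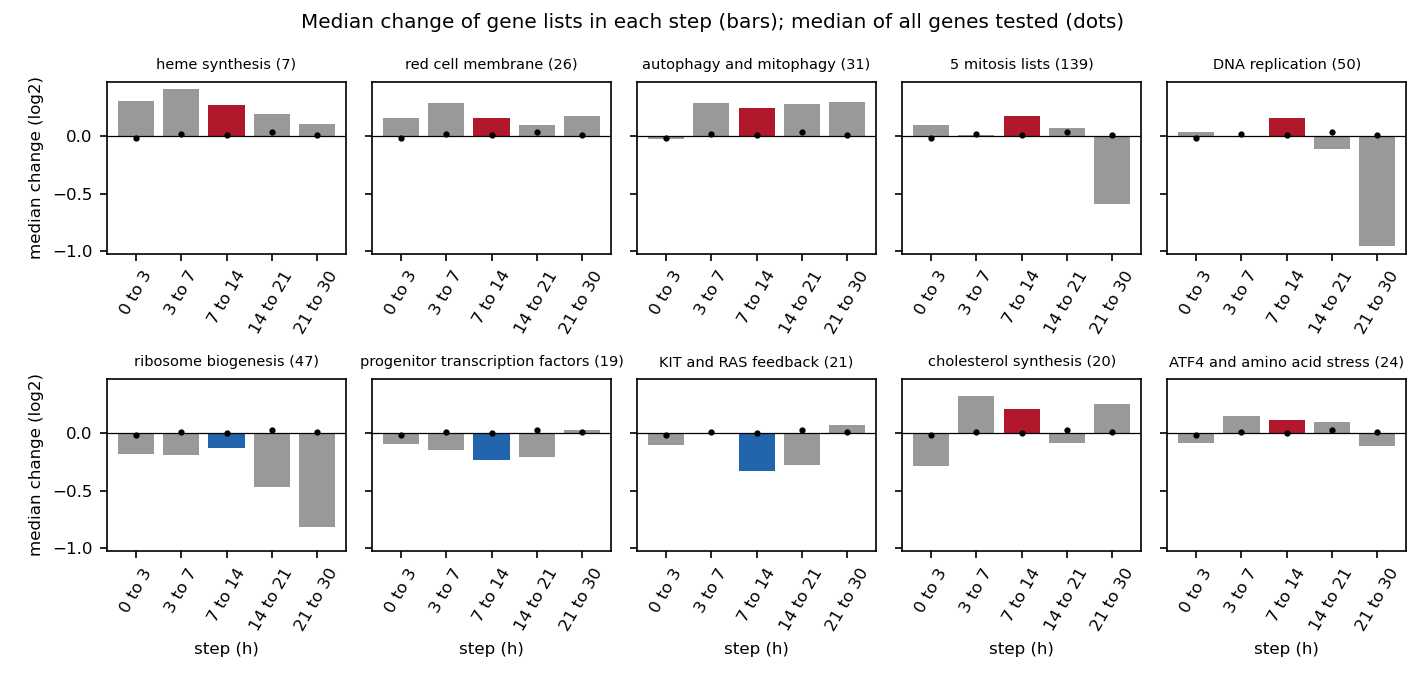
Median change (log2) of 10 gene lists in each step of the time course (bars, with the step from 7 h to 14 h in red or blue and the number of tested genes in brackets) beside the median of all genes tested (dots). From 7 h to 14 h the medians of mitosis and replication genes were 0.17 and 0.16, and from 21 h to 30 h they were -0.59 and -0.95, on the deposited scale.

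The first and last steps share no array with 7 h and 14 h. The first step starts from the 0 h arrays, labelled pre-estradiol, and so includes the start of treatment. From 0 h to 3 h, 1420 genes (11.2%) were higher and 1871 (14.7%) lower, and from 21 h to 30 h 2286 (18%) were higher and 2864 (22.5%) lower. Of the genes called higher from 7 h to 14 h, 319 (21.7%, and 22.5% of the genes that rose from 0 h to 3 h) had also risen in the first step and 248 (16.9%, and 13.3% of those that fell) had fallen in it. Of the genes called lower, 455 (33.2%, 24.3%) had also fallen in the first step and 161 (11.7%, 11.3%) had risen. In the last step, 561 of the genes called higher rose further (38.2%, and 24.5% of all that rose) and 331 fell (22.5%, 11.6%), while 522 of those called lower fell further (38%, 18.2%) and 296 rose (21.6%, 12.9%). On the control scale the 4 classes that changed direction held 30, 16, 93 and 20 genes, in the order fell then rose and rose then fell with the first step, and rose then fell and fell then rose with the last.

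Of the genes that fell from 0 h to 3 h and rose from 7 h to 14 h with no overlap of arrays, Slc4a1 had the largest rise: it stood at 6.37, 6.35 and 6.29 at 0 h and at 5.10, 5.27 and 4.90 at 3 h, a fall of 1.25 (adjusted p = 3.11e-08), before the rise from 7 h to 14 h. Neat1, the long noncoding RNA that builds paraspeckles, fell by 1.88 from 0 h to 3 h and rose by 1.57 from 7 h to 14 h. Rragd, Klf6, Crat and Tuba1a had the same order of directions. Ajuba was the reverse, rising by 3.61 in the first step and falling by 1.69 from 7 h to 14 h, as were Slc26a1, Anxa2, Hhex, Hdac7 and Armcx2, which rose by 0.41 to 0.64 and then fell by 1.17 to 1.68. Mt2 fell by 1.80 from 7 h to 14 h and rose by 2.26 from 21 h to 30 h, when its arrays stood at 11.51, 11.37 and 11.33, and Egr1 fell by 1.75 and rose by 0.59. Ilkap, Acp5, an iron-binding acid phosphatase, Pdia2 and Cdc25b rose by 2.06, 1.26, 1.25 and 0.94 and fell again in the last step by 0.61, 0.52, 0.22 and 0.41. The mitosis genes as a group turned as well: 59 of 139 rose and 1 fell from 7 h to 14 h, and 3 rose and 110 fell from 21 h to 30 h. Of 50 replication genes 24 rose in the first of these steps and 50 fell in the last.

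**Figure D5:**
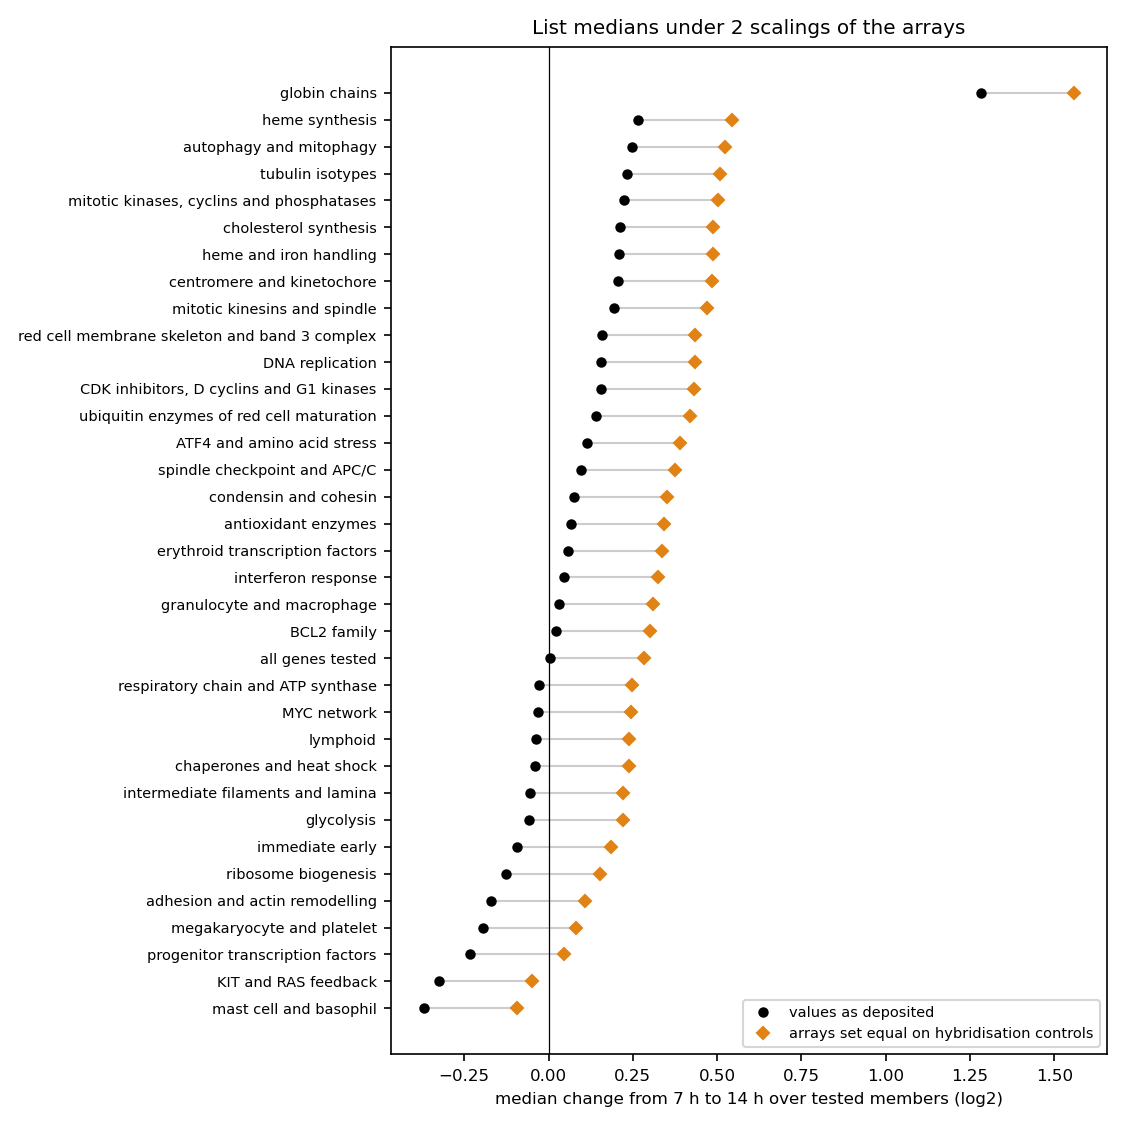
Median change from 7 h to 14 h (log2) over the tested members of 34 gene lists and over all genes tested, with the deposited values (black) and with the arrays set equal on their hybridisation controls (orange). Each median moves up by about 0.28, all genes from 0.0048 to 0.28, and the medians of KIT and RAS feedback and of mast cell genes stay below 0 under both.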

How the data were processed

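Total RNA of G1E-ER4 cells was hybridised to 1-colour Affymetrix mouse arrays, 18 in all, 3 at each of 6 times. The 0 h arrays are labelled pre-estradiol and the others post-estradiol. The deposited series table holds log2 values per probe set on a common scale, made by the authors with a summary and scaling method not given in the sources used here. Gene names came from the platform annotation: of 45101 probe sets 34945 had 1 gene, 932 had several and 9160 had none, with 64 controls set aside.

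Genes were kept where 3 or more arrays showed them above the 40th percentile of that array, each through its probe set with the highest mean. Every contrast came from 1 fit of 6 time means over all 18 arrays in limma 3.58.1 (R 4.3.3), two-sided, with 12 residual degrees of freedom and Benjamini-Hochberg adjustment over all genes tested, called under 0.05. The procedure was tested on simulated data. No pseudocount was used, since values were already log2. The number of arrays limits the precision.

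Named genes were the 20 largest rises and falls without overlap of arrays, up to 5 called members of each list, the 8 largest step differences each way, the 6 largest changes in each class that turned direction, and 9 genes followed throughout (Gata1, Gata2, Zfpm1, Klf1, Kit, Myc, Slc4a1, Alas2 and Vim). Clone names were passed over. Other list members named, such as Fech, Cdk1, Noc3l, Pim1, Btg2 or Asns, were chosen after their values were seen. The comparison and the gene lists were chosen with earlier results of these data known. Alternatives changed the scaling, filter, probe set choice, variance model, block and arrays used. The effect of settings on list counts and on single step differences was added after seeing the data.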

Additional observations from a re-analysis of the deposited data

Results flagged for a closer look

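Probe sets outside the gene counts also changed between 7 h and 14 h. Of 4526 tested probe sets with no gene in the platform annotation, 182 were higher and 103 lower at 14 h (6.30% together, limma with Benjamini-Hochberg adjustment), with changes as large as 1.505 and -2.98 on the log2 scale. Of 655 tested probe sets that match several genes, 32 were higher and 19 lower (7.79% together). Both kinds were adjusted together, apart from the genes, and both shares lay below those over all genes tested, 11.5% higher and 10.8% lower. These probe sets stand apart because no gene in the report rests on them, apart from the shared globin probe sets.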

How the results depend on the processing

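With 1 array left out, 993 to 1350 genes were called higher at 14 h and 1065 to 1225 lower, with the fewest higher without replicate 3 of 7 h. Each probe set tested on its own gave 2281 higher and 2015 lower of 23619 probe sets, which are not counts of genes. A 2-fold minimum gave 48 genes higher and 92 lower, and scaling on the hybridisation controls 158 lower. The step difference gave 80 to 647 more positive and 47 to 387 more negative genes with 1 array left out. It gave 244 and 1 with control scaling, 238 and 124 with no filter, 672 and 338 with a 60th percentile filter, 675 and 355 with a trended robust variance, and 49 and 15 from the arrays compared alone. The 4 classes that turned direction held 150 to 238, 119 to 174, 210 to 355 and 238 to 324 genes with 1 array left out, and 30, 16, 93 and 20 with control scaling. Control scaling ended the call of 43 named genes of 202 and turned 7: Ccnd2 to 0.008, Cct4 to 0.11, Cct6a to 0.10, Hspa9 to 0.12, Hspd1 to 0.12, Mga to 0.065 and Uqcrc2 to 0.15. It turned list medians to 0.045 for progenitor factors, 0.18 for immediate early genes, 0.15 for ribosome biogenesis, 0.22 for glycolysis, 0.24 for chaperones, 0.25 for the respiratory chain, 0.22 for intermediate filaments, 0.11 for adhesion, 0.082 for megakaryocyte genes, 0.24 for the MYC network and 0.24 for lymphoid genes. By construction it adds 0.28 to each change. It also moves each array by its own control mean, which ran from 11.77 to 12.23 within 7 h, and so alters the spread among replicates. Genes called higher went from 1469 to 1312 although each change moved up, and the part of that spread in lost calls was not tested. The BCL2 median of 0.022 became -0.038 over every probe set and ran from -0.055 to 0.16 with 1 array left out (-0.027 without replicate 2 of 14 h), and the respiratory chain median became 2e-04 over mean probe sets and 0.0069 over every probe set. The cause was not tested. Of 202 named genes 137 kept their direction and side of the threshold in every setting run.

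Same-numbered arrays of 7 h and 14 h deviated together at r = -0.0705, -0.1006 and -0.0819, so no pairing by number was seen between them. Over all times the 45 same-numbered pairs ran from -0.158 to 0.151, with 3 over 0.1. With 3 arrays per time, these values cannot show that the numbers mark no shared culture or day. With the replicate number as a block the counts were 1390 higher and 1322 lower, 323 and 176 for the step difference, and 220, 152, 309 and 284 for the classes that turned.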
